A study of Mus musculus with 6 samples.

Results

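Mitosis genes encode the proteins that condense the chromosomes, build the spindle, hold the chromosomes to it, and split the cell once the chromosomes have parted. The genes described here are 47 of the 55487 gene rows in the tables of 6 mammary tumour libraries. They were chosen by name as well-known genes of mitosis, with earlier results of these data known. All 47 were found and passed the low-count filter. The tumours came from MMTV-PyMT mice, in which the mouse mammary tumour virus promoter drives the polyoma virus middle T oncoprotein in the mammary epithelium, so every library of both groups carries the transgene. In 3 libraries the mice had taken DMHCA, a steroidal agonist of the liver X receptors (LXR), by mouth in gel cups without a break from an age of 6 weeks. In the other 3 libraries they had taken vehicle in the same way. The comparison asks what LXR activation does in these tumours. The titles carry one unexplained code for agonist and another for vehicle, the deposited tables carry a different code for each library, and neither is said to stand for a mouse. Whether the 3 libraries of a group come from separate mice is not stated. The p-values and SDs therefore rest on the spread from library to library. Part or all of that spread may be technical, and it may hold no spread between mice. Each group has its own title code, so the agonist and whatever the code stands for cannot be told apart.

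Genes of mitosis are transcribed late in the cell cycle and are silent in resting cells, so their RNA in a tissue piece follows both how many cells are dividing and how much each of them makes. Fewer dividing cells and less RNA per dividing cell cannot be told apart in bulk tumour RNA. In resting cells the DREAM complex holds these promoters shut. In dividing cells B-Myb and FOXM1 join the MuvB proteins that stay on the promoters and switch them on. MuvB binds a short DNA element, the cell cycle genes homology region (CHR), and the factor NF-Y binds CCAAT boxes in the same promoters.

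Those elements are shown first, because they are a shared feature that the choice of the genes by name did not use. Promoter windows of 300 bases, from 250 bases before the annotated start to 50 bases from it on, were found in the RefSeq table (GRCm38.p6) for 40 of the 47 genes, which have 43 windows because Bub3, Ect2 and Prc1 have a pair each. Below are the 4 windows of the genes with the smallest unadjusted p in the comparison of agonist and vehicle, 5′ to 3′ on the strand of the gene, with the CHR letters TTTGAA or TTTAAA and the CCAAT letters in capitals on either strand, so that ATTGG marks a CCAAT box in reverse. Ckap2 lies at chr8:22185770-22186069 (minus strand), Cdca3 at chr6:124829926-124830225 (plus), Cdk1 at chr10:69352863-69353162 (minus) and Cenpe at chr3:135212313-135212612 (plus).
Ckap2: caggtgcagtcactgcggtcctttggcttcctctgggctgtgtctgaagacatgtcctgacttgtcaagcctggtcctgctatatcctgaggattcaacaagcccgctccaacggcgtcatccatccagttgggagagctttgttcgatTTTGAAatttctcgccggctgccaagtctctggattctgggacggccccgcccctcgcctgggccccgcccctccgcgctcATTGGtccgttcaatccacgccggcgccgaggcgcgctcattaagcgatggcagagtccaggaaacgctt
Cdca3: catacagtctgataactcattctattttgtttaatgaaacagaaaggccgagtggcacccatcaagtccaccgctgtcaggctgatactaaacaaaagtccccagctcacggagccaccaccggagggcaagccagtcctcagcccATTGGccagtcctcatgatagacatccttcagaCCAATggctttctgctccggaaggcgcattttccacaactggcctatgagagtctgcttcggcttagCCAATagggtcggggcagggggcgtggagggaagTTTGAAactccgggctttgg
Cdk1: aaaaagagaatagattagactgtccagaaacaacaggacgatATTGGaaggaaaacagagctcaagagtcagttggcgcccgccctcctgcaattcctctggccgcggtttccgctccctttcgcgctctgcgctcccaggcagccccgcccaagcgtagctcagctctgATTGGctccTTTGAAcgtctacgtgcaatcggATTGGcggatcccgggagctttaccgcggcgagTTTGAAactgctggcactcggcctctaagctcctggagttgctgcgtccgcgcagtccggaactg
Cenpe: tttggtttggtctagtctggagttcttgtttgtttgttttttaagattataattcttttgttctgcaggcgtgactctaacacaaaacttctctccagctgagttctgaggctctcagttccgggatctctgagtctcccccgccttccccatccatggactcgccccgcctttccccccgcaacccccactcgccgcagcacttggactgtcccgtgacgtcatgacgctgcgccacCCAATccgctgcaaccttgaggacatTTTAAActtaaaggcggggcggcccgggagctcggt

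The Cdk1 window holds TTTGAA at positions -71 and -15 from the annotated start and 3 CCAAT boxes in reverse. In Cdca3 the TTTGAA begins at position 31 past the start, behind 3 CCAAT boxes on both strands. Cenpe has TTTAAA at position 15, and Ckap2 has TTTGAA at position -101, upstream of a single reversed CCAAT box at -20. Over all 43 windows of the mitosis genes, 35 (81.4%) held TTTGAA or TTTAAA on either strand, against 27.6% of the 32851 promoter windows in the table. The TTTGAA form was in 32 of the 43 windows (74.4%, against 17.9% of all windows) and the palindrome TTTAAA in 9 (20.9%, against 13.2%). CCAAT was in 32 windows (74.4%, against 37.4%), and a CHR sequence together with CCAAT in 30 (69.8%, against 10.7%). Narrowed to the last 100 bases of the window, around the start, a CHR sequence was still in 30 of the 43, against 8.28% of all windows. All 7 windows of cytokinesis genes, from 5 of the 6 genes, held a CHR sequence, as did those of both chromosome protein genes. Nuf2, Kif18a, Nusap1, Melk, Mad2l1 and Pttg1 held neither a CHR sequence nor CCAAT in this window. The windows were not matched on base composition, and a match is a string of letters, not a bound site.

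The libraries summed to between 36577451 and 41434703 expected counts with agonist and between 39977825 and 42595799 with vehicle. The smallest value of a mitosis gene in any library was 259 expected counts (Kif18a in vehicle replicate 3) and the largest 24214 (Mki67 in agonist replicate 3), so counting error was small beside the spread between libraries. Of the luminal markers that define the labelled tissue none of 14 was at 0, and Epcam, Krt8 and Krt18 had at least 537 TPM in every library, while Foxa1 had at most 0.44 TPM. Vehicle replicate 2 stood apart in composition, with 5.55% of its counts in one ribosomal RNA row (CT010467.1), against 0.112% to 0.247% in the other libraries.

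The mitosis genes had mostly higher means with agonist than with vehicle, by modest amounts, and none passed the test. CPM here are counts scaled to library size with TMM factors, which correct for differences in RNA composition, and log2 fold changes are agonist over vehicle from edgeR's quasi-likelihood test. The log2 fold change was positive for 45 of 47 genes, where 49.3% of all 17396 tested genes were positive, and its median was 0.31, against -0.0049 over all genes tested. These counts describe the list and are no test of it, because the genes were chosen with earlier results of these data known. Genes transcribed together are also not independent counts. Values ran from -0.10 (Incenp) to 0.59 (Ckap2), and 32 of the 47 lay between 0.2 and 0.5. An edgeR adjusted p under 0.05 was reached by 0 of the 47 genes and by 0% of all genes, and the smallest adjusted p among the 47 was 0.99. Of the 47 genes, 4 were higher with agonist at an unadjusted p under 0.05 and 0 were lower, where 0.719% of all genes were higher and 2.37% lower at that level. The DESeq2 Wald test called 0 of the 47 genes and 0.0172% of all genes with an adjusted p. The count at an unadjusted p under 0.05 moved with the method, at 3 of the 47 by DESeq2 (2.65% of all genes in either direction), 8 by limma-trend on log2(TPM + 1) (2.26%) and 15 by limma-voom with quality weights (6.96%), against 4 by edgeR (3.09%). With edgeR it was 8 under upper-quartile factors (2.95%) and 7 with no low-count filter (2.9%). The 95% intervals of the other 43 genes included 0. The median standard error was 0.21 on the log2 scale, and the largest upper bound of a 95% interval was 1.07 (Kif18a).

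All 3 agonist libraries were above all 3 vehicle libraries for 7 of the 47 genes, where 3.02% of all genes were higher without overlap, and the reverse held for 0 of 47, where 4.22% of all genes were lower without overlap. In CPM the 7 were Cdk1, Ccnb2, Cdca3, Ckap2, Kif2c, Kif15 and Cenpe. In TPM, Kif2c (13.3 to 17.2 with agonist, 8.55 to 14.0 with vehicle) and Cenpe (8.35 to 11.7, 6.97 to 8.44) overlapped. Ccna2, Ndc80, Bub1, Mad2l1, Pttg1, Kif23 and Anln overlapped in CPM but not in TPM. The share of all genes without overlap in TPM was not counted. Overlap of single genes is judged in CPM below, unless TPM is named. In CPM the 6 libraries did not fall into an agonist and a vehicle set, although TPM summed over the 47 genes did not overlap between groups, as given below. By CPM, agonist replicate 2 was highest for 22 genes and agonist replicate 3 for 14, while vehicle replicate 3 was lowest for 37 and vehicle replicate 1 for 7. Vehicle replicate 2 was level with the agonist libraries in CPM: it lay above at least 1 of them for 36 genes, against 15 genes for vehicle replicate 1 and 3 for vehicle replicate 3. The mean deviation of the 47 genes from their 6-library mean, in log2 CPM, was -0.0093, 0.26 and 0.18 in agonist replicates 1, 2 and 3, against -0.14, 0.12 and -0.41 in vehicle replicates 1, 2 and 3.

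**Figure D1:**
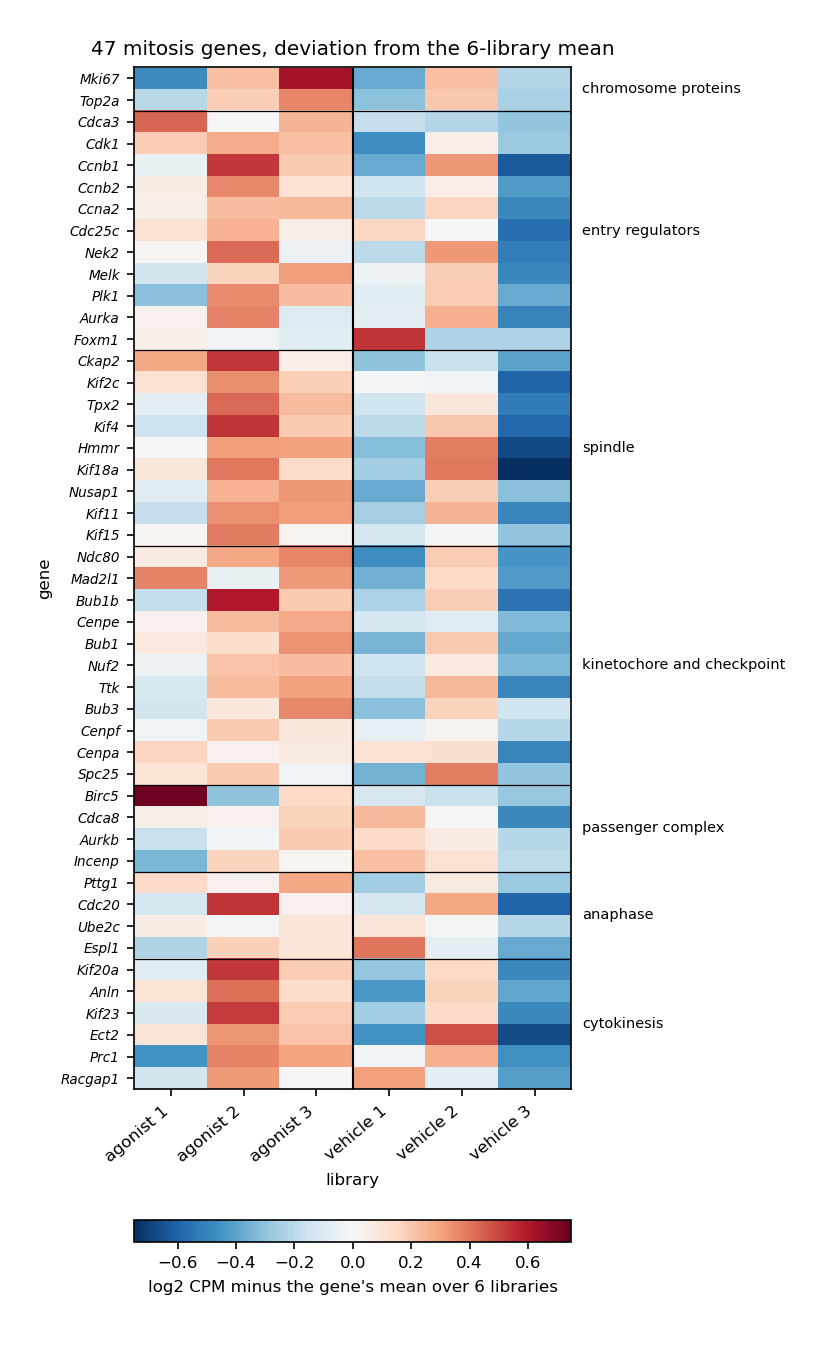
Deviation of each of the 47 mitosis genes (rows, by function) from its mean over 6 libraries, in log2 CPM, for the 3 agonist libraries (left) and the 3 vehicle libraries (right). Vehicle replicate 3 is lowest for 37 genes, and vehicle replicate 2 is above the 6-library mean for 36.

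How large the difference came out depended on the vehicle libraries. Without vehicle replicate 3 the median log2 fold change was 0.17, 39 of 47 genes were positive (49.5% of all genes), 1 had an unadjusted p under 0.05 (3.23% of all genes in either direction) and 7 had no overlap (7.2%). Without vehicle replicate 2 the median was 0.47, 44 of 47 were positive (50.6%), 23 had an unadjusted p under 0.05 (13.6%) and 32 had no overlap (17.4%). Without vehicle replicate 1, 46 were positive (48% of all genes), 3 had an unadjusted p under 0.05 (2.11%) and 11 had no overlap (5.24%). On the agonist side, 46 were positive without replicate 1 (47.9%), with 5 at an unadjusted p under 0.05 (2.49%) and 19 without overlap (7.48%). Without agonist replicate 2, 43 were positive (48.3%), with 4 at that p (3.46%) and 10 without overlap (8.98%). Without agonist replicate 3, 43 were positive (48.7%), with 1 at that p (1.76%) and 7 without overlap (5.24%). None of the 47 genes reached an adjusted p of 0.05 with any library left out, and the smallest adjusted p by edgeR, without vehicle replicate 2, was 0.271.

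**Figure D2:**
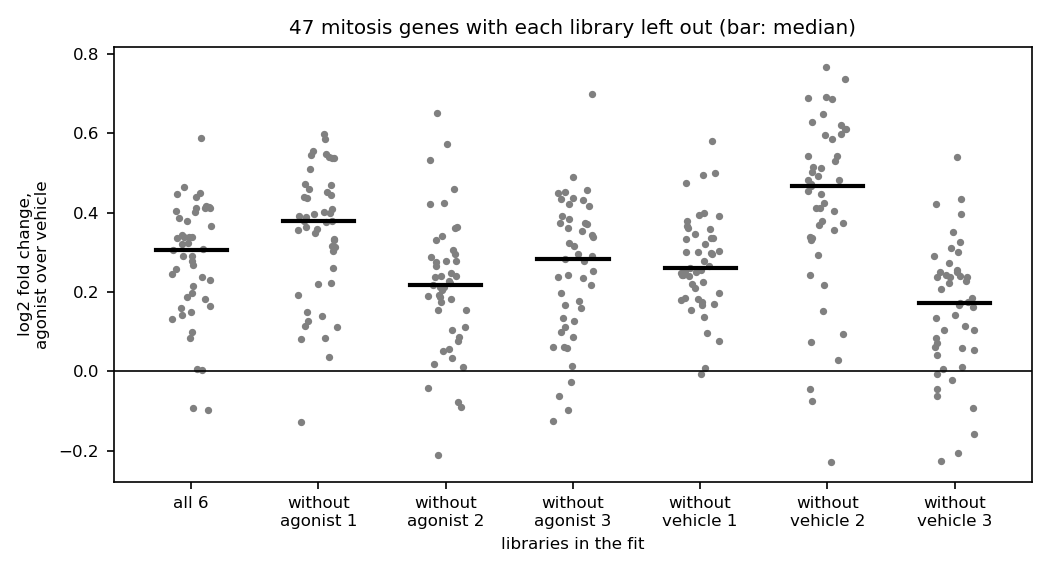
Log2 fold change, agonist over vehicle, of the 47 mitosis genes (points) and their median (bar) with all 6 libraries and with each library left out. The median is 0.31 with all libraries, 0.17 without vehicle replicate 3 and 0.47 without vehicle replicate 2. With an agonist library left out it runs from 0.22 to 0.38.

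Other cell contents of the tumour pieces moved with some of these libraries. The summed TPM (RSEM's level per transcript length) of 14 luminal epithelial markers was 3392 to 3764 with agonist, against 3841 to 3859 with vehicle, which did not overlap. As a mean deviation in log2 CPM the same markers did overlap, at -0.085, -0.087 and -0.061 with agonist, against -0.11, 0.28 and 0.07 with vehicle. Fibroblast markers (10 genes, none at 0) summed to 1466, 1032 and 1257 TPM in agonist replicates 1, 2 and 3, against 180.5 to 1735 with vehicle. Within vehicle, replicate 3 was lowest and replicate 2 highest, which was also their order in the mean deviation of the mitosis genes. Within agonist the order was the reverse of that of the mitosis genes, with replicate 1 highest and replicate 2 lowest for the fibroblast markers. Myeloid markers (10 genes, none at 0) had the same order of the vehicle libraries as fibroblast markers, at 709 to 804 TPM with agonist, against 258 to 1066 with vehicle. Endothelial markers (10 genes, none at 0) summed to 24.7 to 40.2 TPM with agonist, against 15.7 to 33.3 with vehicle. B and plasma cell markers summed to 11.1 to 65.0 TPM with agonist, against 4.47 to 10.3 with vehicle, and overlapped as a mean deviation in log2 CPM, a set in which Ms4a1, a defining gene of B cells, was listed at 0 in at least 1 library. Basal and myoepithelial (10 genes, 134.7 to 337 TPM with agonist against 44.2 to 151 with vehicle), skeletal muscle (8 genes, 462 to 701 against 416 to 517), adipocyte (8 genes, 116 to 809 against 47.8 to 1112), T and NK cell (10 genes, 3.05 to 6.60 against 3.05 to 5.01) and neutrophil markers (7 genes, 62.0 to 159.8 against 23.3 to 73.8) all had overlapping groups. In those sets Trac and Klrb1c of T and NK cells and Ly6g and Retnlg of neutrophils were listed at 0 in at least 1 library. Taken singly, 9 of the 10 basal and myoepithelial markers had positive log2 fold changes, with a median of 1.27 and 0 called. By edgeR 4 were higher at an unadjusted p under 0.05 (0.719% of all genes), and 1 was higher without overlap (3.02%). Their mean deviation in log2 CPM was 1.76 in agonist replicate 3 and -1.41 in vehicle replicate 3. The part of these cell contents in the values of the mitosis genes was not tested.

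Entry into mitosis is driven by CDK1 bound to cyclin A or B, with Aurora A and PLK1 in the circuit that switches it on. Of the 11 entry regulators 10 had positive log2 fold changes, with a median of 0.25, 0 were called, and 3 were higher without overlap between groups. Over all genes 0% were called, and 3.02% were higher and 4.22% lower without overlap. Cdk1 (chromosome 10, 69335146 to 69352938, minus strand), the kinase itself, had 83.7, 89.0 and 85.9 CPM with agonist, against 53.3, 76.0 and 60.5 CPM with vehicle. The agonist libraries lay close together and above every vehicle library, 86.2 ± 2.69 against 63.3 ± 11.6 CPM (SD, n = 3 each). The log2 fold change was 0.45 ± 0.16 (SE; 95% interval 0.07 to 0.83), with an edgeR adjusted p of 0.99.

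Cdca3, whose product promotes entry by directing the inhibitory kinase WEE1 to degradation, had 50.02, 37.0 and 44.2 CPM with agonist, against 32.9, 31.9 and 30.2 CPM with vehicle. Here the vehicle libraries were the tight group, 43.7 ± 6.52 against 31.7 ± 1.39 CPM (SD, n = 3 each), and the log2 fold change was 0.47 ± 0.15 (SE). The cyclin gene Ccnb2 had 49.6, 61.2 and 51.5 CPM with agonist, against 43.1, 49.5 and 35.7 CPM with vehicle, a log2 fold change of 0.34 ± 0.17. The lowest agonist value and the highest vehicle value of Ccnb2 were almost equal, so its groups only just failed to overlap.

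In CPM the other cyclin genes overlapped between groups. In TPM Ccna2 did not, at 41.1 to 48.3 with agonist against 28.6 to 37.3 with vehicle. Ccnb1, which encodes the main partner of CDK1 in mitosis, had 65.7, 98.3 and 78.1 CPM with agonist, against 52.4, 85.0 and 44.1 CPM with vehicle (log2 fold change 0.42 ± 0.27). Ccna2, cyclin A2 of S phase and early mitosis, had 97.9, 112 and 113 CPM with agonist, against 83.2, 107 and 68.3 CPM with vehicle (0.32 ± 0.19). In both genes vehicle replicate 2 reached the agonist range and vehicle replicate 3 was lowest.

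Among the entry kinases, Plk1 had 37.0, 58.8 and 53.9 CPM with agonist, against 43.6, 52.4 and 35.4 CPM with vehicle (log2 fold change 0.19 ± 0.22), and Aurka, Aurora A at the spindle poles, had 26.9, 33.8 and 24.4 CPM with agonist, against 25.0, 31.5 and 18.5 CPM with vehicle (0.18 ± 0.23). Both genes had agonist and vehicle values interleaved. The phosphatase gene Cdc25c (0.25 ± 0.23), the centrosomal kinase gene Nek2 (0.24 ± 0.25) and the kinase gene Melk (0.22 ± 0.22) had log2 fold changes about as large as their standard errors. Foxm1, which encodes the transcription factor named above, went the other way, with 35.6, 33.9 and 32.7 CPM with agonist, against 50.01, 29.4 and 29.4 CPM with vehicle. Its negative log2 fold change of -0.09 ± 0.23 came from vehicle replicate 1 alone, and without that library it was 0.21.

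**Figure D3:**
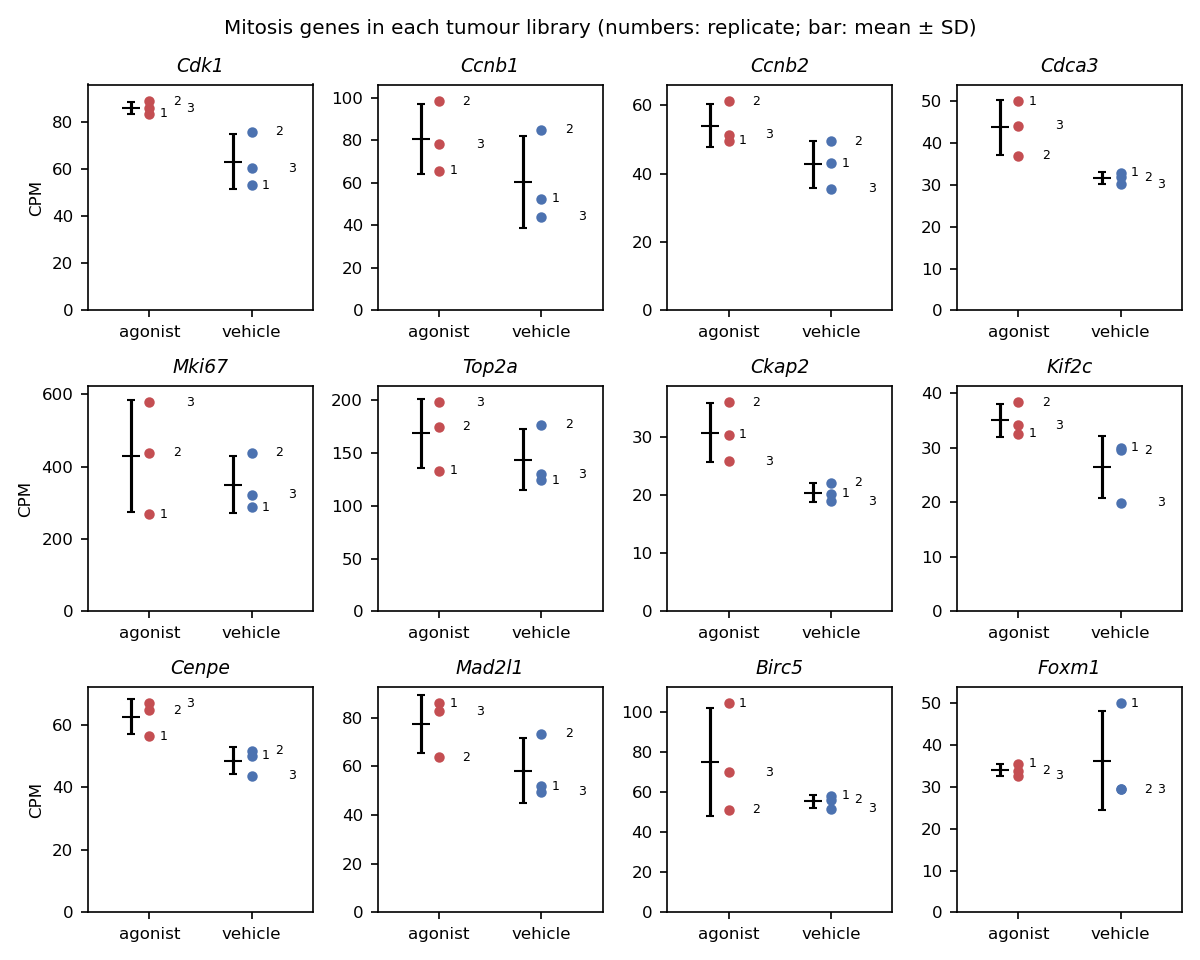
CPM of 12 mitosis genes in each library, agonist left and vehicle right in each panel, with the replicate number beside each point and the mean ± SD beside the points (n = 3 each). Cdk1, Ccnb2, Cdca3, Ckap2, Kif2c and Cenpe show no overlap between groups, and the other 6 overlap.

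Mki67, the antigen of the Ki-67 stain that coats mitotic chromosomes, and Top2a, the topoisomerase that untangles them, are the usual proliferation markers of tumour pathology. Mki67 had 269, 438 and 578 CPM with agonist, against 289, 438 and 322 CPM with vehicle, a log2 fold change of 0.29 ± 0.29. Agonist replicate 1 was below every vehicle library and agonist replicate 3 far above them, and without agonist replicate 3 the log2 fold change was 0.015. Top2a had 133, 175 and 198 CPM with agonist, against 124, 177 and 130 CPM with vehicle (0.23 ± 0.21), with the same order of the agonist libraries. The 2 markers ranked agonist replicate 3 first, whereas 22 of the 47 genes ranked agonist replicate 2 first.

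The spindle is built by motor proteins and by proteins that bundle or stabilise microtubules. All 9 spindle genes had positive log2 fold changes, with a median of 0.34, 0 called and 3 higher without overlap. Of all genes 0% were called, and 3.02% were higher and 4.22% lower without overlap. Ckap2, which encodes a microtubule-stabilising protein of the spindle, had the largest fold change of the 47 genes, with 30.5, 36.0 and 25.9 CPM with agonist, against 20.2, 22.2 and 18.9 CPM with vehicle. The groups were apart, at 30.8 ± 5.10 and 20.5 ± 1.64 CPM (SD, n = 3 each), and the log2 fold change was 0.59 ± 0.17 (SE; 95% interval 0.19 to 0.99; edgeR adjusted p = 0.99, unadjusted p = 0.00995). Kif2c, the microtubule depolymerase that corrects faulty attachments, had 32.6, 38.3 and 34.1 CPM with agonist, against 30.0, 29.5 and 19.9 CPM with vehicle (0.40 ± 0.19). Tpx2, an activator of Aurora A on the spindle, had 73.4, 103 and 91.0 CPM with agonist, against 69.5, 81.7 and 53.7 CPM with vehicle (0.39 ± 0.20), and its groups overlapped through vehicle replicate 2.

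The motors that push the spindle poles apart, Kif11 (log2 fold change 0.31 ± 0.23) and its back-up Kif15 (0.29 ± 0.19), the chromosome-bound motor Kif4 (0.38 ± 0.25) and Kif18a (0.34 ± 0.31), which dampens chromosome movement, had values close to one another. So did the spindle proteins encoded by Hmmr (0.34 ± 0.27) and Nusap1 (0.32 ± 0.20). Kif15 was the one motor of the spindle list besides Kif2c without overlap between groups, with 18.6, 24.1 and 18.6 CPM with agonist, against 16.8, 18.3 and 15.02 CPM with vehicle.

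**Figure D4:**
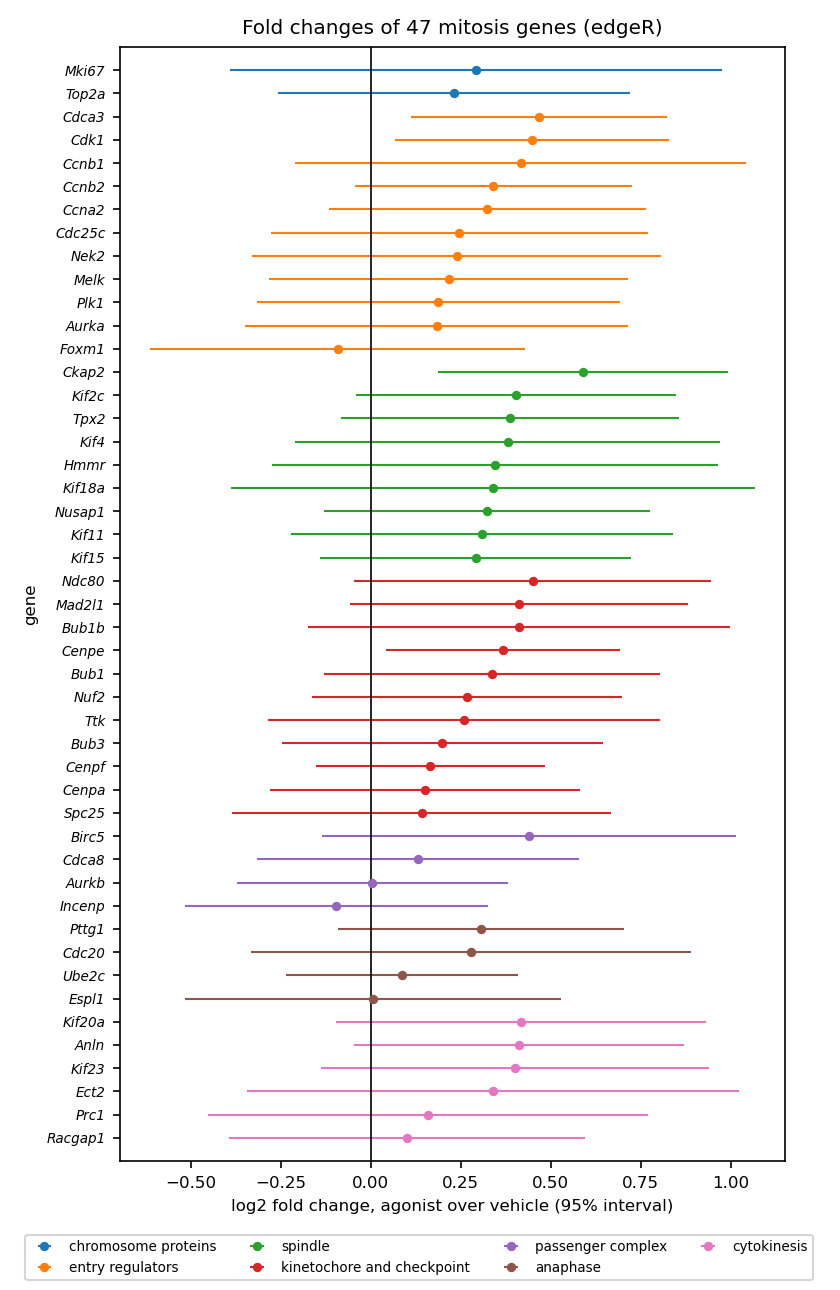
Log2 fold change, agonist over vehicle, of each of the 47 mitosis genes with its 95% interval from edgeR, coloured by function. Of the 47 values 45 are above 0, and the intervals of 4 genes (Ckap2, Cdca3, Cdk1 and Cenpe) leave 0 out.

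Kinetochores tie chromosomes to microtubules, and the checkpoint proteins on them hold back anaphase until every chromosome is attached. All 11 genes of this group had positive log2 fold changes, with a median of 0.27, 0 called and 1 higher without overlap. The shares of all genes were 0% called, and 3.02% higher and 4.22% lower without overlap. The kinetochore gene without overlap was Cenpe, a motor, with 56.2, 64.6 and 66.8 CPM with agonist, against 50.1, 51.6 and 43.7 CPM with vehicle. Its log2 fold change was 0.37 ± 0.14 (SE; 95% interval 0.04 to 0.69; edgeR adjusted p = 0.99). Cenpf, which encodes another large kinetochore protein, had 60.8, 71.2 and 65.7 CPM with agonist, against 59.5, 63.3 and 53.5 CPM with vehicle, and a smaller log2 fold change of 0.17 ± 0.14.

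Of the NDC80 complex, which grips the microtubule, Ndc80 had 29.0, 34.1 and 35.9 CPM with agonist, against 20.2, 31.8 and 20.5 CPM with vehicle (log2 fold change 0.45 ± 0.21). Its partners Nuf2 (0.27 ± 0.19) and Spc25 (0.14 ± 0.23) had smaller values. In the spindle checkpoint, Mad2l1 had 85.9, 63.7 and 82.7 CPM with agonist, against 51.7, 73.5 and 49.5 CPM with vehicle (0.41 ± 0.20). For Mad2l1 agonist replicate 2, the library highest for more genes than any other, was the lowest of the agonist group. Bub1, a checkpoint kinase, had 24.8, 25.8 and 29.7 CPM with agonist, against 18.6, 27.0 and 18.1 CPM with vehicle (0.34 ± 0.20). Bub1b (0.41 ± 0.25), Ttk (0.26 ± 0.23) and Bub3 (0.20 ± 0.19) of the same checkpoint, and Cenpa (0.15 ± 0.19), the histone variant that marks centromeres, overlapped between groups as well.

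The chromosomal passenger complex joins the kinase Aurora B to INCENP, survivin and borealin and moves between centromeres and the midzone. It was the group with the smallest median, 0.07, with 3 of 4 positive and 0 called or without overlap. Over all genes 0% were called, and 3.02% were higher and 4.22% lower without overlap. Aurkb had 31.3, 34.5 and 40.1 CPM with agonist, against 38.7, 36.6 and 30.3 CPM with vehicle, a log2 fold change of 0.0042 ± 0.16 (95% interval -0.37 to 0.38). Its scaffold gene Incenp had 45.3, 64.5 and 58.2 CPM with agonist, against 67.1, 62.1 and 50.4 CPM with vehicle (-0.10 ± 0.18). Cdca8, which encodes borealin, had 42.1, 41.8 and 45.7 CPM with agonist, against 48.2, 40.9 and 29.2 CPM with vehicle (0.13 ± 0.19).

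Birc5, which encodes survivin, was apart from its partners, with 104.6, 51.3 and 70.0 CPM with agonist, against 58.3, 56.3 and 52.0 CPM with vehicle, a log2 fold change of 0.44 ± 0.25. Agonist replicate 1 had the highest value and agonist replicate 2, the library highest for more of the 47 genes than any other, the lowest of all 6. Without agonist replicate 1 its log2 fold change was 0.13. Whether the passenger complex differs from the other groups was not tested.

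Anaphase begins when CDC20 turns on the anaphase-promoting complex, which works with the ubiquitin carrier UBE2C to destroy securin (Pttg1) and free separase (Espl1). All 4 genes had positive log2 fold changes, with a median of 0.18 and 0 called or without overlap. Of all genes 0% were called, and 3.02% were higher and 4.22% lower without overlap. Cdc20 had 67.3, 106.3 and 75.1 CPM with agonist, against 67.2, 89.5 and 48.4 CPM with vehicle (0.28 ± 0.26). Pttg1 had 24.0, 22.2 and 26.5 CPM with agonist, against 18.1, 22.7 and 17.9 CPM with vehicle (0.31 ± 0.17). Ube2c was nearly level, with 78.0, 74.5 and 80.0 CPM with agonist, against 80.0, 74.3 and 64.8 CPM with vehicle (0.09 ± 0.14). Espl1 had a log2 fold change of 0.0068 ± 0.23. Of the exon bases of Ube2c, 22.8% are shared with Tnnc2, a muscle troponin gene on the opposite strand with 92.8 to 148.6 TPM in these libraries, and the strand setting of the counting is not given, so reads of the 2 genes cannot be told apart there.

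Cytokinesis is the pinching of the cell by a contractile ring that the spindle midzone places. All 6 genes had positive log2 fold changes, with a median of 0.37, the highest of the groups, and 0 called or without overlap. The shares of all genes were 0% called, and 3.02% higher and 4.22% lower without overlap. Anln, which encodes the ring scaffold anillin, had 45.7, 56.7 and 46.8 CPM with agonist, against 31.5, 48.1 and 32.6 CPM with vehicle (0.41 ± 0.20). Kif23, a midzone motor, had 20.3, 31.6 and 25.0 CPM with agonist, against 18.3, 24.2 and 15.7 CPM with vehicle (0.40 ± 0.23). In both genes only vehicle replicate 2 reached into the agonist range.

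Kif20a, the motor that carries the passenger complex to the midzone, had 36.3, 55.6 and 44.1 CPM with agonist, against 31.5, 42.8 and 27.6 CPM with vehicle (0.42 ± 0.22). It shares 29.3% of its exon bases with Cdc23 on the opposite strand, so its counts are uncertain. The guanine nucleotide exchange factor gene Ect2, which activates RhoA at the ring, had a log2 fold change of 0.34 ± 0.29. The midzone bundler Prc1 (0.16 ± 0.26) and Racgap1 (0.10 ± 0.21), the partner of KIF23 in centralspindlin, had smaller values, although Racgap1 and Kif23 encode subunits of the same complex.

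Levels per transcript length spanned from a mean of 3.86 TPM over the 6 libraries (Kif18a) to 118 TPM (Ube2c), with a median of 18.0 TPM. After Ube2c came Cdk1 (109 TPM), Birc5 (94.95 TPM), Top2a (75.3 TPM), Cenpa (64.8 TPM) and Bub3 (58.2 TPM), while Kif4 (6.48 TPM), Cenpf (6.29 TPM) and Kif18a closed the list. Ube2c, at 116 to 125 TPM with agonist against 99.4 to 139 TPM with vehicle, and Cdk1, at 108 to 157 against 83.3 to 102 TPM, overlapped in range, so their order at the top was within the spread between libraries. By function the median level was 58.6 TPM for the chromosome protein genes, 53.1 for anaphase, 30.1 for passenger, 25.9 for entry, 16.3 for kinetochore, 15.9 for cytokinesis and 10.5 for spindle genes. The median coefficient of variation of a mitosis gene's TPM was 15.6% over the agonist libraries and 16.6% over the vehicle libraries. Summed over the 47 genes, TPM was 1372, 1626 and 1554 with agonist, against 1329, 1236 and 1057 with vehicle, so on this scale the groups did not overlap. With the ribosomal RNA row taken out of the total, vehicle replicate 2 had 1280.

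**Figure D5:**
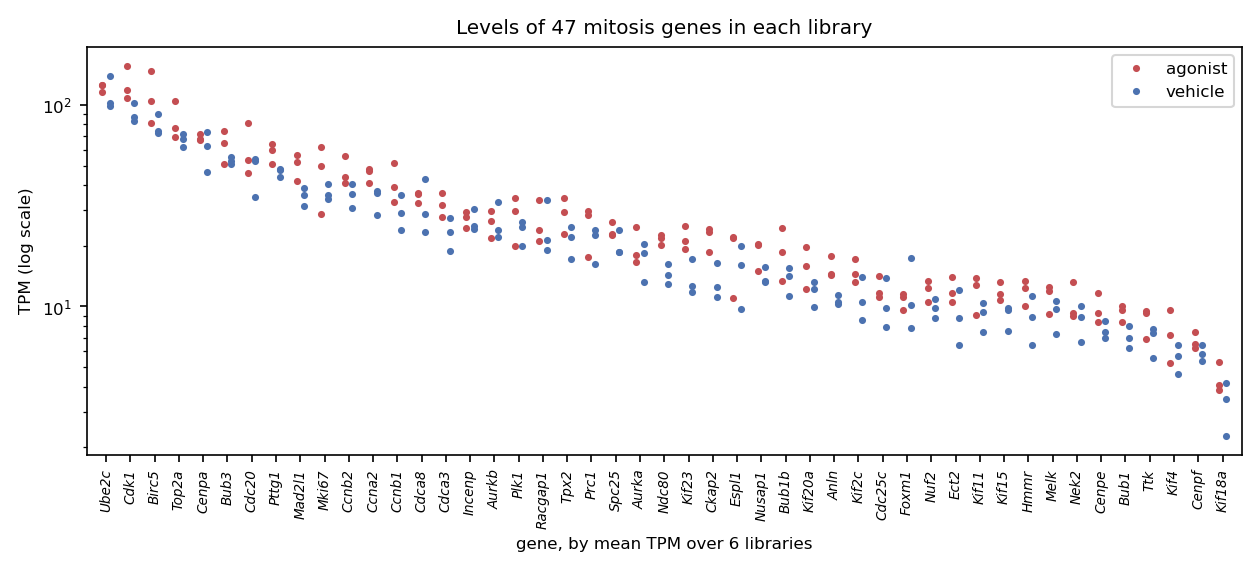
TPM of each of the 47 mitosis genes in every library (log scale), agonist points left of vehicle points, ordered by the mean over 6 libraries. Levels run from 118 TPM for Ube2c to 3.86 TPM for Kif18a.

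A further 82 mitosis genes, listed by function and not among the 47, had positive log2 fold changes in 67 cases and a median of 0.23, with 0 called in either direction. Without overlap between groups 9 of the 82 were higher and 1 was lower, where 3.02% of all genes were higher and 4.22% lower. The lower one was Pkmyt1, an inhibitory kinase of CDK1 (-0.38 ± 0.23), named here after its values were seen. The 4 with the smallest unadjusted p are named. Bora, which encodes the activator of Aurora A and PLK1 at entry, had 22.3, 19.5 and 19.8 CPM with agonist, against 16.003, 15.04 and 13.5 CPM with vehicle (0.47 ± 0.17). Zwilch, a kinetochore checkpoint gene, had 21.6, 26.4 and 30.3 CPM with agonist, against 19.2, 21.2 and 18.3 CPM with vehicle (0.42 ± 0.18). Both had agonist libraries above all vehicle libraries, while Cks2, a subunit bound to CDK1 (0.43 ± 0.19), and Depdc1a (0.57 ± 0.26) overlapped between groups.

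Among 23 genes that control mitotic transcription or the cell cycle exit, 15 had positive log2 fold changes and the median was 0.05, with 0 called. Without overlap between groups 4 were higher and 1 was lower, where 3.02% of all genes were higher and 4.22% lower. The MuvB subunit gene Lin9 had 26.9, 26.1 and 30.8 CPM with agonist, against 18.4, 25.0 and 20.5 CPM with vehicle (0.39 ± 0.17). Tfdp1, the partner of the E2F factors, had 139.8, 131 and 159.9 CPM with agonist, against 119.9, 123 and 121 CPM with vehicle (0.25 ± 0.14), and Rbl1, which encodes p107 of the DREAM family, had 34.3, 36.1 and 39.7 CPM with agonist, against 27.3, 32.4 and 33.4 CPM with vehicle (0.24 ± 0.15). In these 3 genes, and in the MuvB subunit gene Lin52 (0.36 ± 0.26), the agonist libraries were above all vehicle libraries. The opposite held for Nfya, which encodes a subunit of the CCAAT-binding factor NF-Y, with 40.9, 49.8 and 53.8 CPM with agonist, against 55.3, 54.3 and 60.3 CPM with vehicle (-0.23 ± 0.15). Lin52 and Nfya are named after their values were seen. The inhibitor gene Cdkn1a (p21), which halts the cycle, split the agonist group, with 88.0, 111 and 24.9 CPM with agonist, against 33.6, 27.1 and 49.8 CPM with vehicle (1.02 ± 0.54). Agonist replicates 1 and 2 were above every vehicle library for Cdkn1a, and agonist replicate 3 was the lowest of all 6.

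DNA replication genes, the programme of S phase that precedes mitosis, served as the nearest comparison. Of 40 listed genes 33 had positive log2 fold changes, with a median of 0.13, 0 called, and 2 higher and 0 lower without overlap, Ccne1 and Fen1, a share of the list close to the 3.02% of all genes that were higher. Their mean deviation from the 6-library mean was -0.08, 0.14 and 0.15 log2 CPM in agonist replicates 1, 2 and 3, against -0.06, 0.09 and -0.24 in vehicle replicates 1, 2 and 3, the same lowest library as for the mitosis genes. Ccne1, the cyclin of S phase entry, had 17.0, 17.2 and 15.02 CPM with agonist, against 12.9, 13.3 and 8.95 CPM with vehicle (0.49 ± 0.22), without overlap. Mcm4 of the replicative helicase (0.36 ± 0.19), Rrm2 of ribonucleotide reductase (0.40 ± 0.25) and the sliding clamp gene Pcna (0.28 ± 0.18) overlapped between groups. Whether the mitosis genes differed more than the replication genes was not tested.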

How the data were processed

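RNA of MMTV-PyMT mammary tumours was sequenced in 3 agonist and 3 vehicle libraries, with groups and replicate numbers taken from the titles. The authors deposited RSEM expected counts per gene, estimated counts that need not be whole, and TPM, which the same RSEM run divided by effective transcript length, per the file headers. FPKM in the same tables was not used. Per the submitters' processing notes, the tools were RSEM 1.3.1 and STAR 2.7.9a on the build GRCm38, with cutadapt 3.5, FastQC 0.11.9, R 4.1 and DESeq2 1.36.0. The sources used here do not give the annotation release, strand setting or read filters.

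Expected counts were rounded (10.1% to 10.5% of rows per library were not whole) and tested with edgeR 4.0.16 in R 4.3.3, with TMM factors, filterByExpr (minimum count 10, minimum total 15), robust dispersions and a quasi-likelihood F test with group as the sole term, over all 6 libraries. Benjamini-Hochberg adjustment ran over all 17396 tested genes, and an adjusted p under 0.05 was a call. Standard errors were derived by dividing each log2 fold change by the root of its F value. Library deviations use log2 CPM with a prior count of 2. The alternatives covered scaling (upper-quartile factors, size factors from DESeq2), the filter (none, or a CPM of at least 1 in 3 libraries), non-robust estimation, a replicate block, each library left out, and other tests (DESeq2 1.42.0, and in limma 3.58.1 trend on log2(TPM + 1) and voom with quality weights). The fits were tested on simulated counts.

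Gene positions and exon overlaps are from GENCODE M21 (GRCm38). Of the 47 genes 11 had counts that were not whole in at least 1 library, among them Ccna2, Ccnb1, Plk1, Kif4, Kif20a and Ube2c, where reads were shared with other rows. The members and lists were chosen with earlier results of these data known, so no list was tested. Library values are given for the 3 genes of each function with the smallest unadjusted p and for Mki67, Top2a, Cdk1, Ccnb1, Ccnb2, Ccna2, Plk1, Aurka, Aurkb, Foxm1, Birc5, Bub1, Cenpe, Cenpf and Cdc20. The other lists name their 4 genes with the smallest unadjusted p. Kif15 and Fen1 were added after their values were seen. The zero count of a listed cell type marker is not reported here.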

Additional observations from a re-analysis of the deposited data

How the results depend on the processing

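The count of 45 positive log2 fold changes among the 47 mitosis genes held in each of the 9 alternatives that kept all libraries, with medians from 0.31 to 0.40, and none of these called a mitosis gene. Over all genes the DESeq2 Wald test called 5, against 0 by edgeR. With 1 library left out, positive genes numbered 39 to 46, the median ran from 0.17 to 0.47, and calls stayed at 0 over all genes and among the 47. The sign was the same in every fit for 39 genes. It turned on log2(TPM + 1) for Aurkb (-0.0041) and Incenp (0.032). With 1 library left out, ranges crossing 0 were -0.23 to 0.21 (Foxm1), -0.0228 to 0.24 (Cenpa), -0.098 to 0.084 (Aurkb), -0.21 to 0.035 (Incenp), -0.045 to 0.30 (Cdca8), -0.16 to 0.24 (Espl1), -0.0075 to 0.38 (Prc1) and -0.061 to 0.30 (Racgap1). The cause was not tested. With the replicate number as a block the median was 0.31, 45 genes were positive and 0 were called. Same-numbered libraries deviated together only weakly (correlations of 0.17, 0.038 and 0.063 over all genes). Agonist replicates 1 and 3 correlated best with the vehicle library of their own number, and agonist replicate 2 with vehicle replicate 3 (0.055). Whether same-numbered libraries share more than a number was not tested. The smallest expected count of a mitosis gene in any library was 259, and the median standard error was 0.21 on the log2 scale. Why none of the genes was called was not tested.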

Other observations

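RSEM's effective length of a gene moves with the estimated mix of its isoforms, so it is a second readout that differs from the count. Of the 47 mitosis genes, 9 had effective lengths more than 1.2 times apart between libraries (19.1%, against 28.0% of all genes tested). Espl1 ranged most, with effective lengths of 2314, 1635 and 1430 bases with agonist, against 2139, 1511 and 2417 bases with vehicle, and Kif15 had 1484, 2327 and 1813 bases with agonist, against 1997, 1671 and 2135 bases with vehicle. In both genes the groups overlapped. For Cdk1 the effective length was 810.1, 633 and 759 bases with agonist, against 699.6, 667 and 783 bases with vehicle. Agonist replicate 2, with the shortest estimate, had 157 TPM of Cdk1, against 108 and 119 TPM in the other agonist libraries, although its 89.0 CPM was close to their 83.7 and 85.9 CPM. Levels of Cdk1 in TPM thus carry the isoform estimate as well as the count.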
